A study of Mus musculus with 12 samples.

Results

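Messenger RNA of mouse CD4+ T cells given interleukin-12 (IL-12) for 8 h was compared with that of cells kept without IL-12 for 2 h. The samples were taken by the treatment and time in their titles, which gave 4 arrays with IL-12 for 8 h (title numbers 2, 3, 5 and 6) and 2 untreated arrays (numbers 7 and 8), or 6 of the 12 arrays in all. Every sample came from spleens of male C57BL/6 mice at 6 weeks of age, with no genetic change named in the labels, and the cells were enriched by removing other cell types. Per the labels, CD3/CD28 beads had activated the cells for 48 h beforehand, and IL-12 was given at 100 U/ml. IL-12 and 6 more hours of culture differ together between these groups, so the effect of one cannot be told apart from that of the other. The labels do not say whether the beads stayed in the culture, whether animals were pooled, or whether each sample had an animal or culture of its own. The spread behind the p-values may therefore be technical only. Arrays with IL-12 for 2 h (n = 5) and 1 baseline array, for which no culture time is given, are shown beside the comparison.

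CD4+ T cells are the helper cells of the adaptive immune response. Signals from the T cell receptor and CD28 switch on immediate early genes within minutes, through calcium and NFAT, the kinase ERK and NF-kB, and these genes are shut off again by feedback once the signal wanes. IL-12, a cytokine of dendritic cells and macrophages, binds a receptor of 2 chains and acts through the kinases JAK2 and TYK2 and the factor STAT4, and it is known for directing helper T cells to the Th1 type that makes interferon-gamma. STAT4 binds palindromic GAS elements in DNA, whereas the immediate early genes of the Nr4a family are known targets of CREB-type factors that bind the cAMP response element (CRE).

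The windows of 250 bases before the start of the 3 Nr4a genes, which include the 2 genes that fell most, and of Ifng, the interferon-gamma gene, are shown because the results turn on these genes. They come from RefSeq (mouse build GRCm38.p6), are written 5′ to 3′ on the strand of the gene, and lie at chr15:101266596-101266845 (Nr4a1, plus strand), chr2:57124004-57124253 (Nr4a2, minus strand), chr4:48045055-48045304 (Nr4a3, plus strand) and chr10:118440796-118441045 (Ifng, plus strand). Capitals mark the CRE core TGACG on either strand and, at the first bases of the Ifng window, the GAS element TTCNNNGAA.
Nr4a1: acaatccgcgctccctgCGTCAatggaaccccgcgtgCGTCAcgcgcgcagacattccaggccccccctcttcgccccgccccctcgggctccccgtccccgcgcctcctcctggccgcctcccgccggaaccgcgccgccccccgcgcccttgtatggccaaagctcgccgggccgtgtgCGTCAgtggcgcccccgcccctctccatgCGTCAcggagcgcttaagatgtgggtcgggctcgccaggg
Nr4a2: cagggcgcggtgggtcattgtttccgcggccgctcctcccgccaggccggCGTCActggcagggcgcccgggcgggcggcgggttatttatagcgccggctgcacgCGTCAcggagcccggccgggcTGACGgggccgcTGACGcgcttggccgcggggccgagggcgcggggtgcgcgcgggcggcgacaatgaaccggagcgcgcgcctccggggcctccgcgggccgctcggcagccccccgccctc
Nr4a3: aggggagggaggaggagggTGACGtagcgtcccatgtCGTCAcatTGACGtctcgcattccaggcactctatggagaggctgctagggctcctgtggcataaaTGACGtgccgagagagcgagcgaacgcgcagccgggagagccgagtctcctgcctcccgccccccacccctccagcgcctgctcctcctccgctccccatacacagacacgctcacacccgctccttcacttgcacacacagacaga
Ifng: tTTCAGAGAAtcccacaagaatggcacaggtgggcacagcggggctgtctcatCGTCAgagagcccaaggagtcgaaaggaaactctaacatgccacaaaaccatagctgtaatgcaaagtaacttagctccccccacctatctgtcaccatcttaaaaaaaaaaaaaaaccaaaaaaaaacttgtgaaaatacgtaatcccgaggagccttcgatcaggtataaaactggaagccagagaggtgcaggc
Each of the 3 Nr4a windows held 4 copies of the CRE core, and the Ifng window held 1. At least 1 copy was found in 21.4% of the 19019 windows of measured genes, in 29% of the 452 windows of genes that fell and in 25.8% of the 209 windows of genes that rose. At least 4 copies were found in 38 of all windows (0.2%), in 7 windows of genes that fell (1.55%) and in 0 windows of genes that rose. Those 7 include the 3 Nr4a windows, which were picked for their falls, besides those of Aff4, Coq10b, Ell2 and Trp53inp2. The full palindrome TGACGTCA, which holds the core on both strands, was found in 2.02%, 2.65% and 2.87% of the 3 sets, and TTCNNNGAA in 6.54%, 7.96% and 8.13%. Windows were found for 322 of the 420 genes that fell and for 161 of the 205 that rose. A match describes letters and not a bound site.

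Values are log2 intensities after RMA, an array normalization that makes the distributions of the arrays alike. The median intensity of an array lay between 160.6 and 167.3 before the log, and precision is limited by how few arrays there are. The title numbers fall into a run from 2 to 4 and a run from 5 to 8, which the labels do not explain, and 4795 genes differed between these runs at an adjusted p under 0.05. Both untreated arrays lie in the second run, so each log2 change comes from limma, a linear model over all 12 arrays with a term for the run, and the difference among arrays numbered 5 to 8 alone (n = 2 against 2) is given beside it. Helper T cell markers had mean log2 intensities from 11.40 to 11.74 on all 12 arrays and Cd4 from 11.84 to 12.07 on the 6 arrays compared, while Cd3e changed by 0.04 ± 0.08. The helper marker means were 11.74 and 11.70 in untreated arrays 7 and 8. They were 11.52, 11.49, 11.52 and 11.52 in IL-12 8 h arrays 2, 3, 5 and 6. Of the 9 helper markers 1 was called, a fall of Cd40lg (median of the list -0.03). Untreated arrays 7 and 8 had means of 7.38 and 7.30 over 15 macrophage and monocyte markers, IL-12 8 h arrays 5 and 6 had 7.20 and 7.15, and IL-12 8 h arrays 2 and 3 had 6.60 and 6.64. By limma 0 of the 15 were called (3 at an unadjusted p under 0.05), and 14 had a negative change (median -0.13). Their defining member Lyz2, a lysozyme gene, lay at 9.93 and 9.64 in untreated cells and at 7.14, 7.28, 9.24 and 8.44 in IL-12 8 h arrays 2, 3, 5 and 6. The 4 CD8 T cell markers also had lower means, 7.68, 7.67, 8.04 and 8.08 in IL-12 8 h arrays 2, 3, 5 and 6 against 8.37 and 8.22. Their median change was -0.21, with 0 called. Of 9 NK cell markers 1 was called, a fall of Klrb1c (median of the list -0.03). B cell, dendritic cell, neutrophil, erythroid and platelet, and gamma-delta T cell lists had medians between -0.10 and -0.01, with 0 called. In bulk samples, fewer cells of a type and less RNA per cell cannot be told apart.

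Of 19752 genes tested, limma called 625 (3.16%) at a p under 0.05 after Benjamini-Hochberg adjustment, of which 205 (1.04%) were higher at 8 h of IL-12 and 420 (2.13%) lower. At an unadjusted p under 0.05 there were 2871 genes (14.5%), the share against which such counts of a list are to be read. The falls were larger: their median log2 change was -0.54 against 0.42 for the rises, and 43 genes fell but only 4 rose by more than 2-fold. Among arrays numbered 5 to 8 the medians of these genes were 0.42 and -0.54 and no sign differed, which is no independent check, since the genes were called with the same untreated arrays and IL-12 8 h arrays 5 and 6. The 4 arrays with IL-12 did not overlap with the untreated arrays for 185 of the rises and 417 of the falls. Over all genes, 2339 (11.8%) lay wholly higher and 2339 (11.8%) wholly lower. The counts rest on few arrays. Without untreated array 7 they were 74 and 226, without untreated array 8 they were 67 and 200, without IL-12 8 h array 5 they were 112 and 310, and without IL-12 2 h array 4 they were 135 and 355. Arrays numbered 5 to 8 alone gave 68 and 252, of which 49 and 219 were among those called with all arrays. With the mean of those 15 macrophage markers in the model limma called 13 higher and 68 lower. With the baseline array counted as untreated it called 48 higher and 42 lower. In all, 30 rises and 133 falls were called in each of the 11 fits that leave out 1 array (the baseline array was kept), and 3 rises and 3 falls in all 27 alternatives. An alternative that tests only genes above the median level leaves out Serpinb5, Nqo1 and Fasl, which were called in the other 26.

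**Figure D1:**
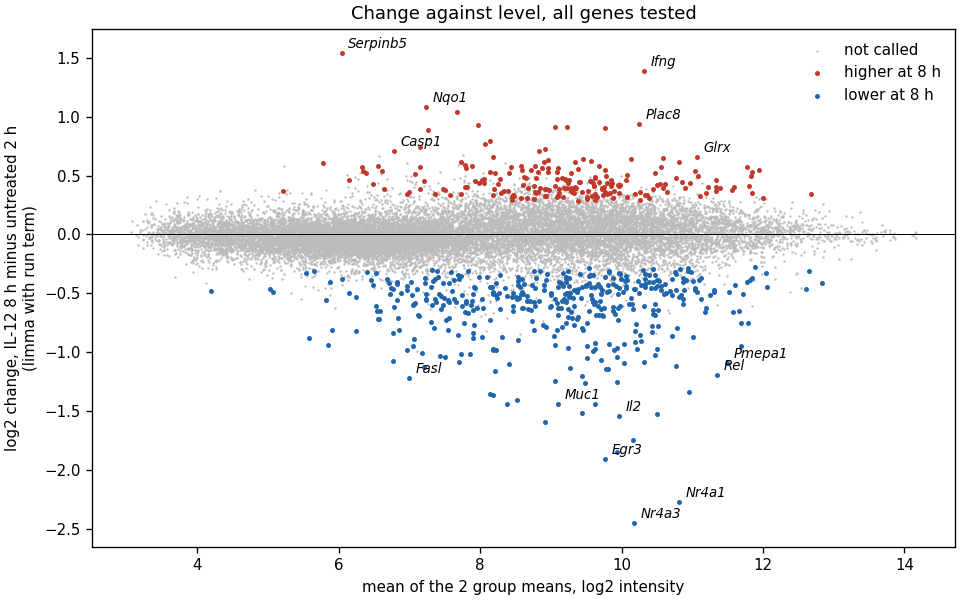
Log2 change between IL-12 8 h and untreated 2 h (vertical axis) against the mean of both group means (horizontal axis, log2 intensity) for all 19752 genes; each point is a gene and colours mark genes called higher or lower. The largest changes lie below 0, down to -2.45 for Nr4a3, and the highest point is Serpinb5 at 1.54.

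Immediate early genes of the T cell receptor held the 3 largest falls. Nr4a3, an orphan nuclear receptor gene, had log2 intensities of 7.87, 7.77, 9.42 and 9.48 in IL-12 8 h arrays 2, 3, 5 and 6, against 11.76 and 11.67 in untreated cells. All 4 lay more than 2 log2 units lower, and the difference was 5.46-fold (log2 -2.45 ± 0.15 SE, limma adjusted p = 9.1e-07), or -2.26 among arrays numbered 5 to 8. Nr4a1, whose product is the Nur77 receptor used to report T cell receptor signals, lay at 9.24, 9.21, 9.69 and 9.73 against 12.19 and 12.13 (log2 -2.27 ± 0.14, limma adjusted p = 1.07e-06). Their relative Nr4a2 lay at 7.52, 7.74, 8.37 and 8.12 against 10.04 and 9.74 (log2 -1.59 ± 0.12). The untreated arrays were thus the high ones for all 3 receptors, and the baseline array lay with the IL-12 8 h arrays at 9.59, 9.70 and 7.74 for Nr4a3, Nr4a1 and Nr4a2.

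The Egr zinc finger factors, which follow ERK and calcium signals, behaved alike. Egr3 lay at 8.49, 8.46, 8.73 and 8.78 with IL-12 for 8 h and at 11.01 and 10.84 in untreated cells, a 3.74-fold fall (log2 -1.90 ± 0.20, limma adjusted p = 0.000102). Egr2 fell by a log2 of 1.34 ± 0.11 and Egr1 by 1.02 ± 0.08. Atf3, a stress-responsive partner of AP-1 factors, fell by 1.74 ± 0.22, and Fosb, an AP-1 subunit, by 1.08 ± 0.11. Of the 32 immediate early factors measured, 18 fell by log2 sizes between 0.35 and 2.45, 13 did not pass the test and 1 rose. The median of the list was -0.51, against -0.01 over all genes. The 1 rise was Jun, another AP-1 subunit, at 10.16, 10.32, 10.46 and 10.69 against 9.80 and 9.92 (log2 0.64 ± 0.11, limma adjusted p = 0.00356), and this call ended without untreated array 7. For Jun the arrays with IL-12 for 2 h were high too, between 10.57 and 10.79.

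**Figure D2:**
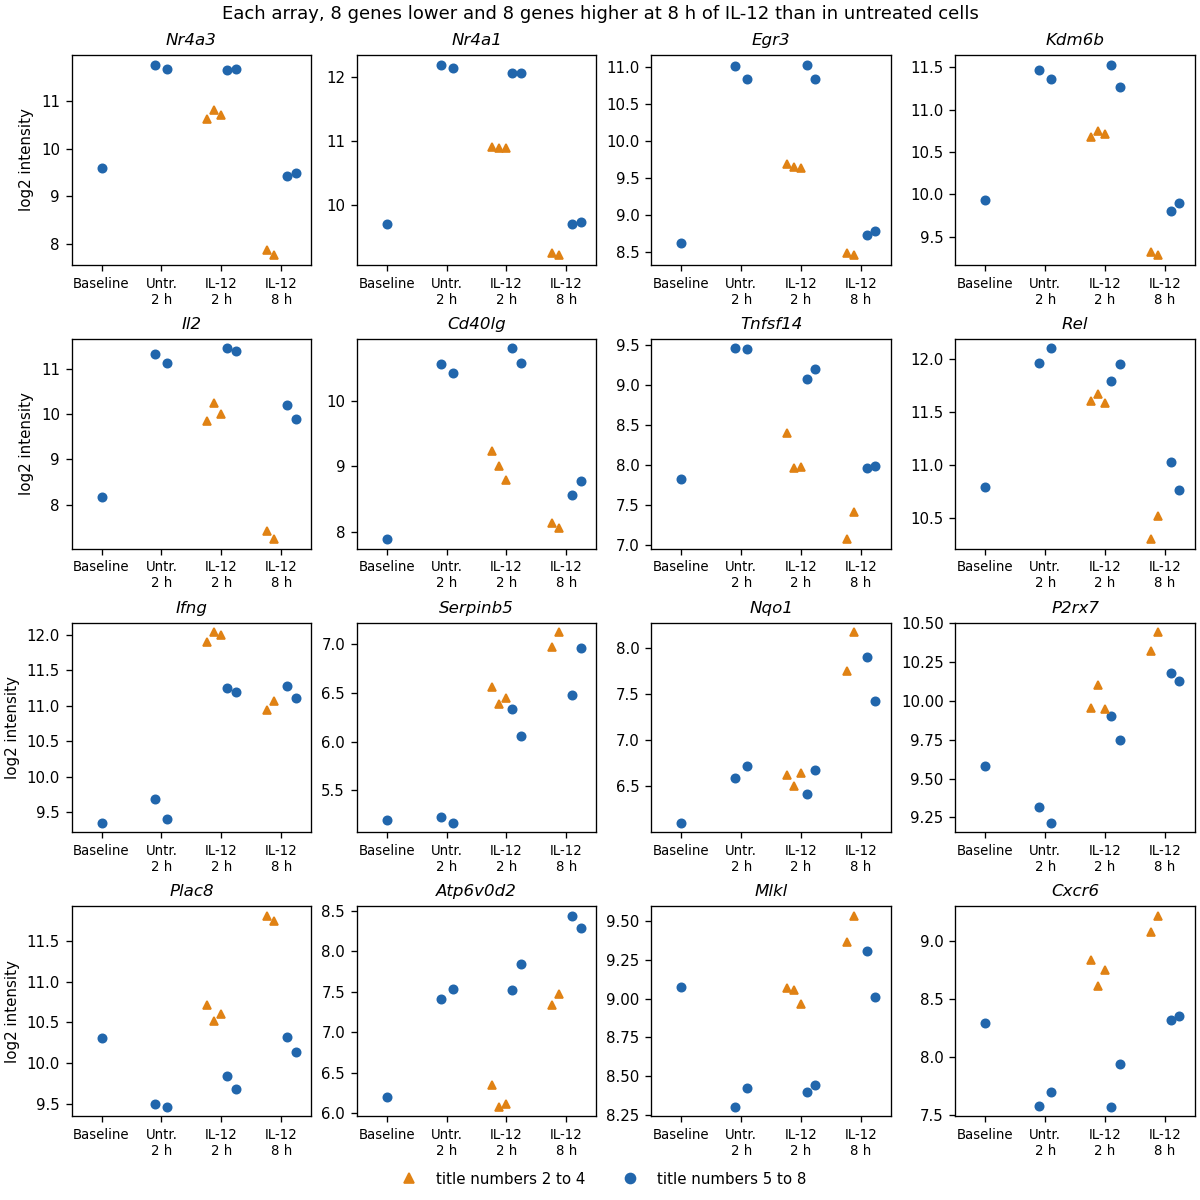
Log2 intensity of 8 genes that fell and 8 that rose on each of the 12 arrays (vertical axis), by group (horizontal axis); triangles are arrays numbered 2 to 4 and circles those numbered 5 to 8. For Nr4a3 and Nr4a1 the untreated arrays lie above all 4 arrays with IL-12 for 8 h, while for Ifng and Serpinb5 they lie below them.

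Of 18 feedback genes of ERK signalling 10 fell, 1 rose and 7 did not pass the test. Spry1, which encodes a Sprouty inhibitor of the pathway, lay at 8.12, 8.31, 8.92 and 9.11 with IL-12 for 8 h and at 10.67 and 10.62 without (log2 -1.43 ± 0.16, limma adjusted p = 0.000145). The dual-specificity phosphatases that remove phosphate from MAP kinases showed falls of 1.25 ± 0.11 (Dusp4), 0.99 ± 0.11 (Dusp6) and 0.79 ± 0.08 (Dusp5) on the log2 scale. Smaller falls of 0.57 ± 0.11 for Dusp14 and 0.55 ± 0.10 for Dusp1 were not called without untreated array 7. The median of the list was -0.42, and the rise was Etv5, an ETS factor gene named after its value was seen (0.46, called in 9 of the 11 fits that leave out an array). Among calcium and NFAT response genes 3 of 17 fell, 2 of them regulators of G protein signalling: Rgs2 (log2 -1.01 ± 0.13) and Rgs16 (-0.91 ± 0.11). The third was Orai1, the pore of the calcium channel that store depletion opens (-0.56 ± 0.13), whose call ended without IL-12 8 h array 5 or either untreated array.

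Of 19 NF-kB genes 8 fell, 0 rose and 11 did not pass the test. Nfkbid, which encodes a nuclear I-kappa-B protein, lay at 9.07, 9.16, 8.99 and 8.82 against 10.89 and 10.83 in untreated cells, 3.60-fold lower (log2 -1.85 ± 0.11, limma adjusted p = 9.1e-07). The 4 arrays lay close together here, in both runs. Rel, the c-Rel subunit central to T cell activation, fell by a log2 of 1.20 ± 0.11. The inhibitors Tnfaip3 (-0.92 ± 0.10) and Nfkbia (-0.75 ± 0.10), both NF-kB targets themselves, fell as well. The median of the list was -0.31. Relb (-0.61 ± 0.12) lost its call without either untreated array and Nfkbiz (-0.51 ± 0.10) without array 8. Bcl10 (-0.55 ± 0.10), Ubash3b (-0.53 ± 0.12) and Malt1 (-0.38 ± 0.09) were the members called among 24 receptor-proximal genes, and each lost its call without untreated array 7. Bcl10 and Malt1 link the receptor to NF-kB. Ubash3b lost it also without untreated array 8 or either of IL-12 8 h arrays 5 and 6, and Malt1 in 9 of the 11 fits that leave out a single array.

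Of 21 cytokine genes of helper cells 4 fell, 1 rose and 16 did not pass the test. Il2, the T cell growth factor, lay at 7.42, 7.23, 10.21 and 9.90 in IL-12 8 h arrays 2, 3, 5 and 6 and at 11.34 and 11.13 in untreated cells. All 4 were lower, but the arrays of the first run lay more than 2 log2 units under those of the second. The change was -1.54 ± 0.27 (limma adjusted p = 0.00636) and -1.18 among arrays numbered 5 to 8, and it was not called without untreated array 7. Il4, the lead cytokine of Th2 cells, lay at 8.75, 8.76, 8.53 and 8.45 against 9.70 and 9.30 (log2 -1.24 ± 0.19, limma adjusted p = 0.00244). Lif, a cytokine of the IL-6 family, fell by 1.04 ± 0.16 and Tnf by 0.87 ± 0.13. The rise was Ifng. Among the genes that did not pass was Il21 at -0.52 ± 0.18 (limma adjusted p = 0.153). The chemokine genes Ccl4 (-1.04 ± 0.10) and Cxcl2 (-0.94 ± 0.14, dimmer than the array medians in both groups) fell out of 14 chemokine ligands.

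The TNF superfamily ligands, by which helper T cells act on other cells, had a median change of -0.60, the lowest of the 48 gene lists; among arrays numbered 5 to 8 it was -0.41, and the immediate early list was lower at -0.53. Cd40lg, the CD40 ligand that licenses B cells and dendritic cells, lay at 8.14, 8.05, 8.56 and 8.78 against 10.56 and 10.42 (log2 -1.52 ± 0.24, limma adjusted p = 0.00244). Tnfsf14, which encodes LIGHT, lay at 7.07, 7.41, 7.96 and 7.98 against 9.46 and 9.45 (log2 -1.40 ± 0.14). The death ligand Fasl lay at 6.25, 6.33, 6.39 and 6.32 against 7.46 and 7.85 (log2 -1.22 ± 0.12), and Tnfsf11, which encodes RANKL, fell by 0.69 ± 0.07. Of 14 TNF superfamily ligands 6 fell and 0 rose. The sixth, Tnfsf9 (4-1BB ligand, -0.55 ± 0.13), lost its call without untreated array 7 or IL-12 8 h array 5 or 6. Of 18 receptors of this superfamily limma called 0 lower (8 in either direction at an unadjusted p under 0.05) and 1 higher, Tnfrsf8 (CD30, 0.50 ± 0.10, not called without either untreated array). The difference between the ligand and receptor lists was not tested.

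Among costimulators and checkpoints 5 of 24 genes fell and 0 rose. Cd274, which encodes PD-L1, lay at 9.30, 9.31, 9.99 and 9.84 against 10.86 and 10.80 (log2 -0.97 ± 0.08, limma adjusted p = 2.17e-05), and the other PD-1 ligand Pdcd1lg2 fell by 0.87 ± 0.16, a call lost without either untreated array. Havcr2 (TIM-3, -0.98 ± 0.11), Slamf1 (-0.97 ± 0.09) and Pdcd1, the PD-1 receptor itself (-0.57 ± 0.09), completed the calls. Follicular helper genes overlapped with these lists, and 5 of 17 fell: Cd40lg, Egr2, Pdcd1, Cxcr5 (-0.72 ± 0.11, dim in both groups) and the IL-6 receptor chain Il6ra (-0.73 ± 0.08). A wider list of cytokine receptors had 5 falls in 22, and Il6ra was the largest. The list covers the common gamma, IL-10 and gp130 families and also interferon receptor chains and the TGF-beta receptor gene Tgfbr2. Its other falls were Ifngr2, Tgfbr2, Il15ra (-0.43 ± 0.09) and Ifnar1 (-0.32 ± 0.07). Il15ra and Ifnar1 were called in 9 and 5 of the 11 fits that leave out an array. Ifngr2, the signalling chain of the interferon-gamma receptor, lay at 10.34, 10.42, 11.06 and 11.22 against 11.60 and 11.64 (log2 -0.62 ± 0.12, limma adjusted p = 0.0113), with no call left without either untreated array.

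Several genes of TGF-beta signalling fell. Skil and Tgif1 encode repressors of SMAD-driven transcription, and they fell by log2 1.14 ± 0.12 and 0.98 ± 0.07. Lrrc32 (GARP, which holds latent TGF-beta at the cell surface) changed by -0.86 ± 0.13, Itgav (the alpha-v integrin chain that can activate it) by -0.61 ± 0.09 and Smad3 by -0.59 ± 0.09. Pmepa1, a feedback inhibitor of the pathway outside this list, lay at 10.07, 10.04, 11.32 and 11.26 against 12.30 and 12.33 (log2 -1.09 ± 0.09, limma adjusted p = 8.71e-06). In the whole list 7 of 19 genes fell, 1 rose and 11 did not pass (median -0.29). The rise was Furin, the convertase that cleaves pro-TGF-beta and is also a known IL-12 target, at 12.08, 12.18, 12.01 and 12.08 against 11.59 and 11.31 (log2 0.57 ± 0.09, limma adjusted p = 0.00346, not called without untreated array 8). At 2 h of IL-12 Furin lay higher still, between 12.25 and 12.55. The receptor gene Tgfbr2 fell by 0.42 ± 0.09, a call that ended without either untreated array or either of IL-12 8 h arrays 5 and 6.

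Of the enzymes that write and erase chromatin marks, Kdm6b fell most. This gene for the H3K27 demethylase JMJD3 lay at 9.32, 9.28, 9.81 and 9.90 against 11.46 and 11.36, a 2.87-fold fall (log2 -1.52 ± 0.09, limma adjusted p = 9.1e-07). Kdm2b (-0.62 ± 0.08), the DNA methyltransferase gene Dnmt3a (-0.46 ± 0.08) and the methylcytosine oxidase gene Tet2 (-0.51 ± 0.10, not called without untreated array 7) fell too, and 17 of 21 members of this list did not pass. Genes usually linked to epithelia and adhesion held further large falls. Muc1, a membrane mucin gene, lay at 7.86, 7.89, 8.28 and 8.65 against 10.10 and 9.98 (log2 -1.44 ± 0.15), and Mpzl2, an adhesion protein gene of thymic epithelium, at 6.80, 6.96, 7.99 and 7.88 against 9.43 and 9.29 (log2 -1.44 ± 0.09). Emp1 (-1.09 ± 0.15), Plaur (-0.81 ± 0.09), Cd24a (-0.68 ± 0.10) and Lmna (-0.67 ± 0.09) were also lower, and 7 of 27 fell with 0 rises (median -0.26). Ptgs2, the cyclooxygenase-2 gene, lay at 6.49, 6.59, 8.24 and 7.53 against an untreated mean of 9.06 (log2 -1.35 ± 0.19). Macrophages also express Ptgs2 and Plaur, and the macrophage marker values moved in the same direction; their part in these falls was not tested.

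**Figure D3:**
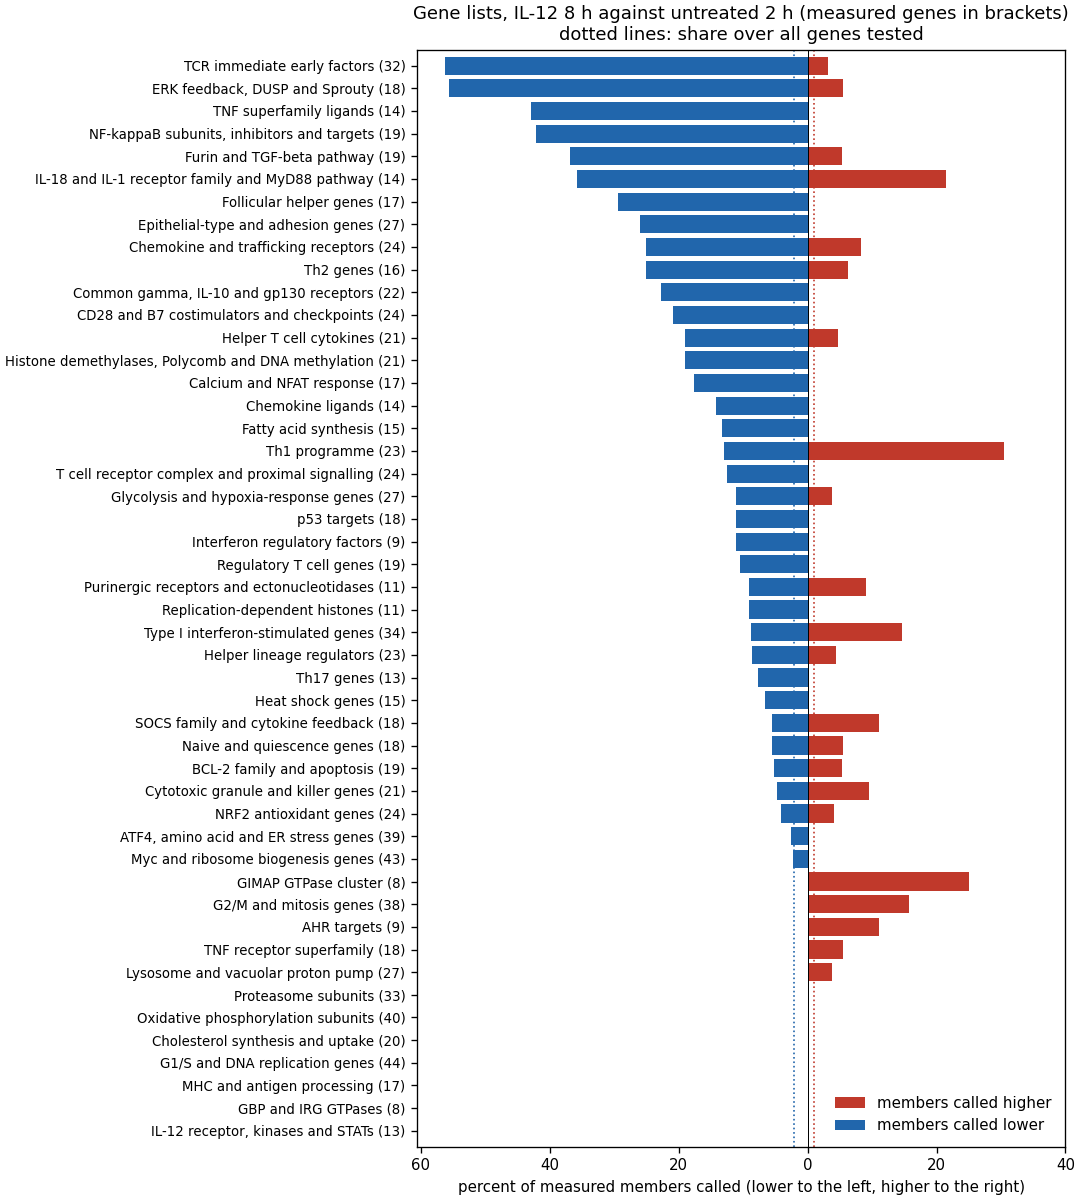
Percent of the measured members of each gene list that were called lower (bars to the left) or higher (bars to the right) at 8 h of IL-12, with the number of measured genes in brackets and dotted lines at the shares over all genes. The immediate early and ERK feedback lists reach farthest to the left, with 18 of 32 and 10 of 18 genes lower, and the Th1 list farthest to the right, with 7 of 23 higher.

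The Th1 list held the largest share of members called higher, 7 of 23, while its median change of 0.13 lay below those of the GIMAP (0.29), G2/M (0.25) and aryl hydrocarbon receptor (0.17) lists. Ifng lay at 10.94, 11.07, 11.28 and 11.12 in IL-12 8 h arrays 2, 3, 5 and 6, against 9.69 and 9.40 in untreated cells and 9.35 at baseline. The 4 arrays were higher than all arrays without IL-12, and the change was 2.62-fold (log2 1.39 ± 0.20, limma adjusted p = 0.00125), or 1.65 among arrays numbered 5 to 8. Serpinb5, a serpin gene with no settled role in T cells, had the largest log2 rise, 1.54 ± 0.13 (limma adjusted p = 1.31e-05), from 5.23 and 5.17 to 6.98, 7.13, 6.48 and 6.96. It stayed dimmer than the median of the arrays in both groups, so its level is low. The granule gene Nkg7 lay at 11.04, 11.09, 10.89 and 10.87 against 10.27 and 10.13 (log2 0.65 ± 0.08), and Ctsw, a protease gene of cytotoxic granules, at 9.82, 10.05, 9.76 and 9.75 against 9.15 and 8.97 (log2 0.64 ± 0.09). They were the 2 rises among 21 cytotoxic granule and killer genes, of which 1 fell and 18 did not pass the test (median 0.08). The fall was the killer receptor gene Klrb1c, dim in both groups (log2 -0.88 ± 0.10, limma adjusted p = 0.000279). Cxcr6, the chemokine receptor of effector and resident T cells, rose by 0.65 ± 0.11, a call that ended without untreated array 7.

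Tbx21, which encodes the Th1 master factor T-bet, lay at 12.03, 12.05, 11.65 and 11.81 against 11.36 and 11.20. Its change of 0.40 ± 0.10 passed narrowly (limma adjusted p = 0.0406), and the call was lost in 9 of the 11 fits that leave out a single array. The Th2 factor gene Gata3 changed by -0.49 ± 0.12 (limma adjusted p = 0.0391) with as many losses. In the Th1 list the 7 rises measured 0.40 to 1.54, 3 genes fell and 13 did not pass. The list was chosen with results known, and without Serpinb5 it had 6 rises in 22 genes and a median of 0.12. The members that fell were Tnfsf11, the kinase gene Map3k8 (-0.68) and the stress gene Gadd45b (-0.90), of which Map3k8 and Gadd45b are named after their values were seen and were called in 10 of the 11 fits that leave out an array. The chains of the IL-12 receptor and STAT4 did not pass the test. Il12rb2 changed by 0.27 ± 0.12 (limma adjusted p = 0.296), Il12rb1 by 0.04 ± 0.10 and Stat4 by -0.04 ± 0.08, and limma called 0 of 13 genes for the receptor, its kinases and the STATs (4 at an unadjusted p under 0.05). The IL-2 receptor chain Il2ra changed by 0.19 ± 0.07 (limma adjusted p = 0.213).

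Receptor genes of the IL-18 and IL-1 family split. Il18r1, the ligand-binding chain for the IL-12 partner cytokine IL-18, lay at 8.33, 8.67, 8.67 and 8.22 against 7.54 and 7.80 (log2 0.76 ± 0.13, limma adjusted p = 0.00595). Its partner Il18rap changed by 0.12 ± 0.08 at 8 h (limma adjusted p = 0.622), although it lay between 8.15 and 8.38 at 2 h of IL-12 against 7.50 and 7.61 in untreated cells. The adaptor gene Myd88 rose by 0.38 ± 0.09 and Il18 itself, dim in both groups, by 0.36 ± 0.08. In the other direction Il1rl2 (-0.51 ± 0.08, dim), the receptor antagonist gene Il1rn (-0.48 ± 0.11) and the kinase gene Irak2 (-0.47 ± 0.09) fell, so that 3 of 14 rose and 5 fell. The remaining falls, named after their values were seen, were Traf6 (-0.47) and Irak3 (-0.32), called in 1 and 2 of the 11 fits that leave out an array. Without untreated array 7 the calls of Il18r1, Myd88, Il18, Il1rn and Irak2 ended, and those of Myd88 and Il18 also ended without array 8 or IL-12 8 h array 5, the last of which ended that of Il1rn as well.

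Purinergic genes gave 1 rise and 1 fall. P2rx7, the ATP-gated channel that opens in response to ATP released by damaged cells, lay at 10.32, 10.44, 10.18 and 10.13 against 9.32 and 9.22 (log2 0.90 ± 0.08, limma adjusted p = 3.48e-05). Outside that list, Mlkl, the executioner of necroptosis, lay at 9.36, 9.53, 9.31 and 9.01 against 8.30 and 8.43 (log2 0.71 ± 0.11, limma adjusted p = 0.00262). The inflammatory caspase gene Casp1, dim in both groups, changed by 0.71 ± 0.15 (limma adjusted p = 0.0161), and its call ended without untreated array 7 or IL-12 8 h array 5. Tlr7, a sensor of single-stranded RNA, rose by 0.74 ± 0.10. The purinergic gene that fell was Nt5e, the ectonucleotidase CD73 that makes adenosine from AMP, at 7.78, 7.82, 9.47 and 9.29 against 10.04 and 9.93 (log2 -0.66 ± 0.11, limma adjusted p = 0.00306). Its arrays numbered 2 and 3 lay far under those numbered 5 and 6, and with the baseline array (7.83) counted as untreated the change became 0.06. Of the 11 purinergic genes listed and measured, P2rx7 was the only one called higher and Nt5e the only one called lower. The channel gene P2rx3, not in that list and dim in both groups, changed by 0.58 ± 0.13, a call lost without either untreated array or IL-12 8 h array 5.

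Type I interferon-stimulated genes gave 5 rises and 3 falls in 34. Ms4a4c lay at 10.28, 10.25, 9.64 and 9.49 against 8.49 and 8.58 (log2 0.91 ± 0.12, limma adjusted p = 0.000509), but the baseline array stood at 9.86 without IL-12. Trim30a rose by 0.46 ± 0.08, Usp18, a protease that removes ISG15 and damps interferon signalling, by 0.39 ± 0.08, and Slfn1 by 0.35 ± 0.08. At baseline Trim30a (11.75) and Usp18 (9.42) lay within the range of the IL-12 8 h arrays. Slfn1 lay at 11.03, 10.85, 11.60 and 11.45 in IL-12 8 h arrays 2, 3, 5 and 6 against 11.18 and 11.14 in untreated cells. Its groups overlap. The change rests on the run term (-0.56 for arrays numbered 2 to 4) and on the 0.37 seen among arrays numbered 5 to 8. Ifih1, which encodes the RNA sensor MDA5, fell by 0.63 ± 0.13. Slfn5 (-0.60) and Rtp4 (-0.52), named after their values were seen, were the other falls, called in 4 and 5 of the 11 fits that leave out an array. The call of Usp18 ended without untreated array 8 or IL-12 8 h array 5, that of Ifih1 without either untreated array, and that of Slfn1 in 6 of the 11 fits, both without an untreated array included. Limma called 0 of 8 guanylate-binding and immunity-related GTPase genes and 0 of 17 genes of MHC and antigen processing (2 and 4 at an unadjusted p under 0.05). Among interferon regulatory factors Irf8 fell by 0.45 ± 0.09 (limma adjusted p = 0.0147, not called without untreated array 7), and Irf4 changed by -0.61 ± 0.22 with an adjusted p of 0.186.

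Of 24 NRF2 antioxidant genes 1 rose and 1 fell. Nqo1, a quinone reductase that NRF2 and the aryl hydrocarbon receptor are known to induce, lay at 7.75, 8.18, 7.91 and 7.43 against 6.59 and 6.72 (log2 1.08 ± 0.15, limma adjusted p = 0.00109). It was the rise, and Srxn1 (-0.49 ± 0.11) the fall, a call lost without either untreated array. Ahrr, the repressor of the aryl hydrocarbon receptor, changed by 0.60 ± 0.17 and did not pass (limma adjusted p = 0.0786). Outside the lists, Scly, which recovers selenium from selenocysteine, rose by 0.92 ± 0.08, and the redox gene Glrx by 0.65 ± 0.13. Glrx lost its call without untreated array 8 or IL-12 8 h array 5. Plac8, a cysteine-rich protein gene of lymphocytes and myeloid cells, lay at 11.81 and 11.74 in IL-12 8 h arrays 2 and 3 but at 10.32 and 10.14 in arrays 5 and 6, against 9.50 and 9.46 (log2 0.94 ± 0.16, or 0.75 among arrays numbered 5 to 8).

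Atp6v0d2, a subunit of the vacuolar proton pump, shows what the run term does. It lay at 7.34 and 7.47 in IL-12 8 h arrays 2 and 3, at 8.44 and 8.28 in arrays 5 and 6, and at 7.41 and 7.53 in untreated cells, so that the groups overlap. Its change of 1.04 ± 0.15 (limma adjusted p = 0.00128) rests on the run term, which is -1.26 for arrays numbered 2 to 4, and on the 0.89 seen among arrays numbered 5 to 8. The other 26 lysosomal genes measured did not pass the test. Cyp11a1, the enzyme that starts steroid synthesis and is known from Th2 cells, rose by 0.61 ± 0.09, at 9.87 and 10.04 in arrays 2 and 3 and at 8.89 and 8.95 in arrays 5 and 6 against 8.32 and 8.43. Slc2a1, the glucose transporter GLUT1, rose by 0.53 ± 0.11, while Ndrg1 (-0.65 ± 0.13), Aldoc (-0.64 ± 0.14) and Tpi1 (-0.41 ± 0.08) fell among 27 glycolysis and hypoxia genes. Each of these 4 calls ended without at least 1 untreated array, and that of Aldoc also without IL-12 8 h array 5. At baseline, without IL-12, Slc2a1 stood at 12.71, above all IL-12 8 h arrays. Ndrg1 (10.66), Aldoc (10.72) and Tpi1 (13.23) stood above both untreated arrays there. The lipid desaturase genes Scd1 (-0.96 ± 0.15) and Fads2 (-0.78 ± 0.10) fell, and limma called 0 of 20 cholesterol genes (2 at an unadjusted p under 0.05).

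Of 38 measured G2/M and mitosis genes 6 rose, 0 fell and 32 did not pass the test (23 had an unadjusted p under 0.05). All 38 changes had a positive sign, with a median of 0.25, and 0.21 among arrays numbered 5 to 8. Cdc20, which activates the anaphase-promoting complex, lay at 11.01, 11.02, 10.59 and 10.69 against 10.15 and 10.05 (log2 0.52 ± 0.07, limma adjusted p = 0.0011). It is the 1 call of the 6 that held whichever array was left out. Bub1b (0.48 ± 0.10), Kif20a (0.40 ± 0.09), Tpx2 (0.39 ± 0.08), Birc5 (0.34 ± 0.08) and Cdc25c (0.57 ± 0.14) each lost the call without untreated array 7. Tpx2 lost it also without IL-12 8 h array 5, as did Kif20a, which was called in 8 of the 11 fits that leave out an array. Birc5 and Cdc25c lost it in 8 of these fits. In the baseline array, without IL-12, Cdc20 (10.74), Bub1b (11.06), Birc5 (10.35) and Cdc25c (8.73) lay within the range of the IL-12 8 h arrays. Kif20a (11.09) and Tpx2 (10.96) lay below that range at baseline, though above both untreated arrays. Of 44 genes of G1/S and DNA replication limma called 0 (3 at an unadjusted p under 0.05, median -0.003), and Ccnd3 came nearest at 0.29 ± 0.07 (limma adjusted p = 0.05). Pim2, a survival kinase gene that cytokines induce, rose by 0.55 ± 0.09, and Igfbp4, a binding protein of insulin-like growth factors, by 0.62 ± 0.09. In the GIMAP cluster of lymphocyte GTPases 2 of 8 rose, Gimap7 (0.41 ± 0.08) and Gimap3 (0.39 ± 0.09). Both calls were lost without either untreated array, and that of Gimap3 in 8 of the 11 fits that leave out an array. The baseline array stood at 11.91 for Gimap3, above all IL-12 8 h arrays, and at 10.26 for Gimap7, within the range of those arrays. Limma called 0 of 40 oxidative phosphorylation subunits and 0 of 33 proteasome subunits (1 and 5 at an unadjusted p under 0.05), with medians of 0.08 and 0.11. Of the oxidative phosphorylation subunits 33 had a positive sign, with 14 wholly higher and 1 wholly lower. Of the proteasome subunits 27 had a positive sign, with 12 wholly higher and 0 wholly lower. Over all 19752 genes 9310 had a positive sign, and 11.8% lay wholly higher and 11.8% wholly lower. The counts of arrays that do not overlap take no account of the run. Of 43 Myc and ribosome biogenesis genes, 39 genes of the ATF4 and endoplasmic reticulum stress response and 15 heat shock genes, 1 fell in each list: Mxd1 (-0.42 ± 0.09), Sesn2 (-0.50 ± 0.11) and Hspa4l (-0.81 ± 0.14). Mxd1 and Sesn2 lost the call without untreated array 7, Sesn2 also without IL-12 8 h array 5, and Sesn2 and Hspa4l without untreated array 8.

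Of 24 chemokine and other trafficking receptor genes 2 rose and 6 fell. Ccr8, a receptor of Th2 and regulatory T cells, lay at 10.08, 10.27, 10.20 and 10.40 against 11.37 and 11.22 (log2 -1.12 ± 0.13, limma adjusted p = 0.000165). Gpr183, which guides lymphocytes by oxysterols, fell by 0.42 ± 0.09, Gpr65, a proton sensor, by 0.68 ± 0.12, and the gut-homing receptor gene Ccr9 by 0.79 ± 0.16. Without untreated array 8 these 3 calls ended, and those of Gpr183 and Ccr9 also ended without array 7, that of Ccr9 without IL-12 8 h array 5 too. Besides Cxcr6, the rise was S1pr4, a sphingosine-1-phosphate receptor gene named after its value was seen (0.35, called in 7 of the 11 fits). The Th2 list held 4 falls (Il4, Ccr8, Gata3 and Gfi1) and 1 rise (Cyp11a1) in 16 genes. Gfi1 changed by -0.45 ± 0.11 and lost its call in 6 of the 11 fits, both without an untreated array included. Of 13 Th17 genes Ccr6 alone was called (-0.59 ± 0.13, not without either untreated array or IL-12 8 h array 6), and of 19 regulatory T cell genes Lrrc32 and Nt5e fell.

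The largest changes also took in genes outside these lists. Among the falls Tbc1d30, a gene of the Rab GTPase-activating family, lay at 6.57, 6.61, 7.71 and 8.05 against 9.12 and 9.16 (log2 -1.37 ± 0.12, limma adjusted p = 2.17e-05). Xylt1, the enzyme that starts glycosaminoglycan chains, changed by -1.26 ± 0.12, Tent5a, a poly(A) polymerase gene, by -1.21 ± 0.19, and Cd83, an activation marker of lymphocytes and dendritic cells, by -1.14 ± 0.13. Phlda1 (-1.16 ± 0.08), the repressor gene Zhx2 (-1.13 ± 0.14) and C9orf72 (-1.10 ± 0.12) were similar in size. Tspan2 (-1.13 ± 0.24) lost its call without untreated array 8 or either of IL-12 8 h arrays 5 and 6. Among the rises Sema4f, a semaphorin gene, lay at 8.35, 8.27, 8.42 and 8.71 against 7.55 and 7.43 (log2 0.93 ± 0.13), and Tmem106a at 7.80, 7.84, 7.70 and 7.53 against 6.79 and 6.82 (log2 0.89 ± 0.10). Smaller rises with called changes whichever array was left out were those of Traf3ip3 (0.62 ± 0.08), Phactr2 (0.58 ± 0.09), Dnah8 (0.59 ± 0.08) and, dim in both groups, the cadherin gene Cdh17 (0.61 ± 0.09). The baseline array, without IL-12, lay within the range of the IL-12 8 h arrays for Traf3ip3 (9.73) and Dnah8 (8.08). For Phactr2 (8.06) it lay below both untreated arrays, and for Cdh17 (5.67) between the groups. Dglucy (0.73 ± 0.13) was not called without untreated array 8, and Vwa5a (0.63 ± 0.11) and Tubd1 (0.58 ± 0.10) not without array 7. Armcx6 (0.62 ± 0.16, limma adjusted p = 0.0452) lost its call in 8 of the 11 fits.

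**Figure D4:**
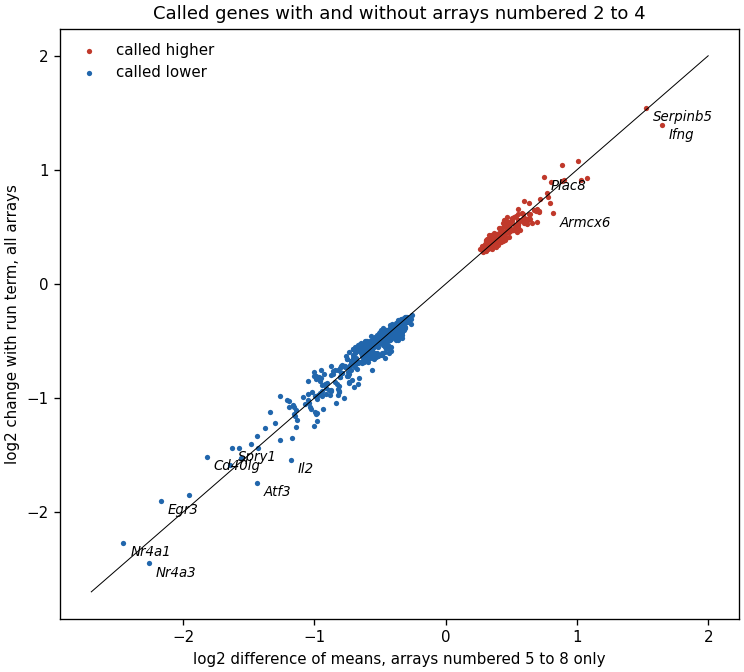
Log2 change from the model over all arrays (vertical axis) against the difference of group means among arrays numbered 5 to 8 only (horizontal axis) for each of the 625 called genes. All points lie in the quadrants of equal sign; Il2 (-1.54 and -1.18) and Cd40lg (-1.52 and -1.82) are among those off the diagonal.

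The arrays with IL-12 for 2 h place these changes in time, with the limit that the comparisons share samples and that an untreated 8 h group was not analysed here. In arrays 5 and 6 with IL-12 for 2 h, Nr4a3 lay at 11.65 and 11.67, next to the untreated 11.76 and 11.67, and Nr4a1 at 12.06 and 12.06. Arrays 2, 3 and 4 of that group lay lower, at 10.62, 10.81 and 10.70 for Nr4a3, at 10.91, 10.89 and 10.89 for Nr4a1 and at 9.70, 9.66 and 9.64 for Egr3. No untreated array carries a number of their run, and they lay above the IL-12 8 h arrays 2 and 3. The modelled difference between IL-12 2 h and untreated was 0.13 for Nr4a3, -0.29 for Nr4a1, -0.05 for Kdm6b and -0.08 for Muc1, none of them called. From IL-12 2 h to 8 h the differences were -2.58, -1.98, -1.47 and -1.36. Il2 lay at 11.46 and 11.40 at 2 h in arrays 5 and 6, and Il4 at 9.53 and 9.46. For these genes the arrays with IL-12 for 2 h and the untreated arrays of the same run lay side by side, and the IL-12 8 h arrays lay lower.

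Rising genes differed in their order. Ifng was 1.94 above untreated at 2 h and 0.55 lower at 8 h than at 2 h, both called by limma (adjusted p = 0.0025 and 0.0227). Jun (0.92, then -0.28), Furin (0.87, then -0.30) and Myd88 (0.60, then -0.23) had the same order, with both steps called for all 3. Il18r1 rose at 2 h (0.99), and its further step of -0.23 did not pass. Serpinb5 (0.99, then 0.56) and P2rx7 (0.54, then 0.36) had a called step up at both times. Nqo1 (-0.18, then 1.26), Plac8 (0.09, then 0.85), Nkg7 (0.13, then 0.52), Mlkl (0.14, then 0.56) and Cdc20 (-0.02, then 0.54) had no called step at 2 h and a called step from 2 h to 8 h. That a step passed at one time and not at the other was not itself tested as a difference.

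**Figure D5:**
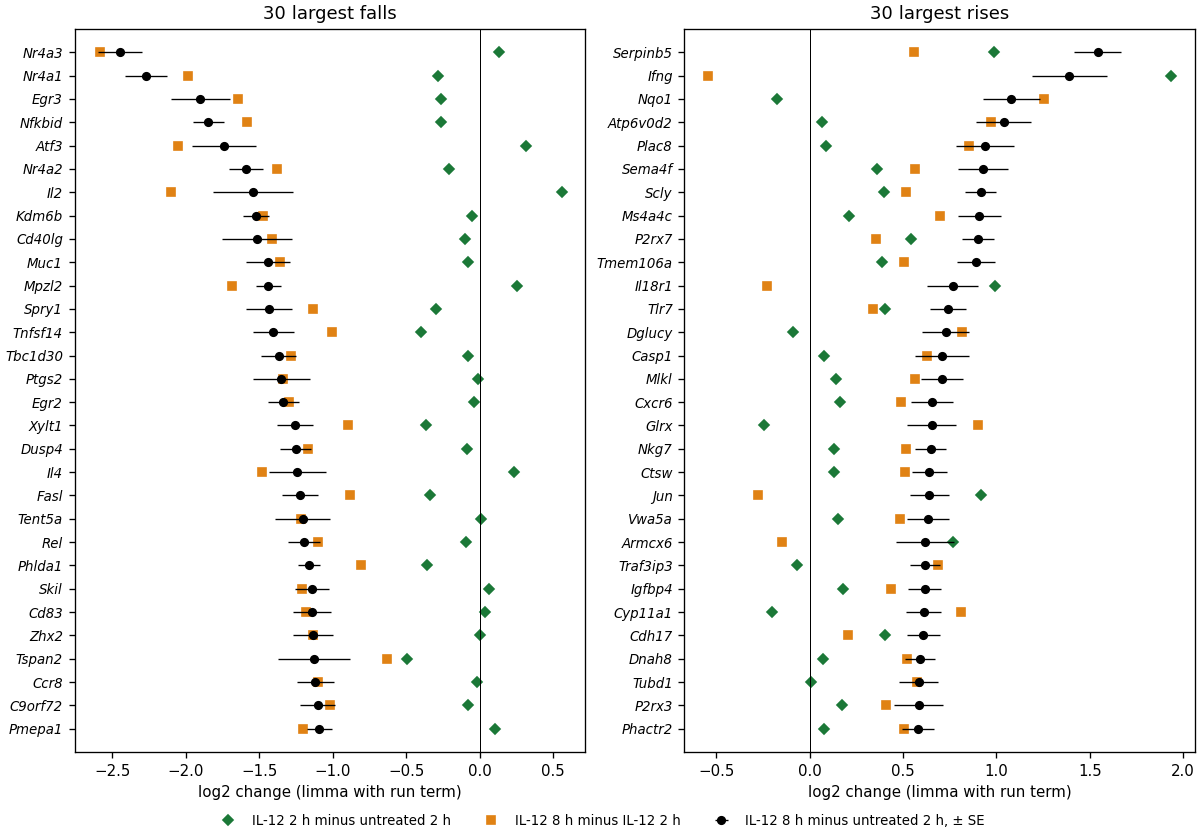
Log2 differences (horizontal axis, model with run term) of IL-12 2 h from untreated 2 h (diamonds), IL-12 8 h from IL-12 2 h (squares) and IL-12 8 h from untreated 2 h (circles, bars ± SE) for the 30 largest falls and 30 largest rises with a given gene name, 1 gene per row. Nr4a3 has its diamond at 0.13 and its circle at -2.45, Ifng at 1.94 and 1.39, and Nqo1 at -0.18 and 1.08.

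The step from 2 h to 8 h could be compared between the runs, since IL-12 arrays of both times exist in each. It differed between the runs, in limma's test of the interaction, for 354 of the 19752 genes tested, including 32 of the 420 falls and 4 of the 205 rises. The share among the falls was larger than that over all genes, and the share among the rises was close to it. These differences in share were not tested. Nr4a3 fell by 0.69 more in arrays numbered 2 to 4, while Nr4a1 fell by 0.68 less there, and Egr3 by 0.99 less (limma adjusted p = 0.00882, 0.0038 and 0.00108). Il2 fell by 1.33 more and Cd40lg by 1.11 less in arrays numbered 2 to 4 (limma adjusted p = 0.00226 and 0.00631). Ifng fell by 0.95 more there (limma adjusted p = 0.00403): it stood between 11.90 and 12.04 at 2 h against 10.94 and 11.07 at 8 h, while in arrays 5 and 6 it stood at 11.25 and 11.20 and then at 11.28 and 11.12. Nfkbid, Kdm6b, Muc1, Mpzl2, P2rx7 and Serpinb5 did not differ past the threshold in this test.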

How the data were processed

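The 12 samples were each run on an Affymetrix Mouse Gene 1.0 ST array. The authors deposited linear intensity for 24922 probe sets. RMA in Affymetrix Power Tools is named by the submitters' processing notes without a version; the probe annotation is not given in the sources used here. RMA equalises the arrays, so a shift of all genes would not show. The values were log2-transformed here. Of the probe sets 21425 had 1 gene symbol in GEO's platform annotation, 1399 several and 2098 none, and of several probe sets of a gene the brightest was kept, which left 19752 genes with no filter on low values.

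Limma 3.58.1 in R 4.3.3 fitted 4 group means and a term for the title-number run (2 to 4 against 5 to 8) to all 12 arrays, which left 7 residual degrees of freedom beside 6.84 from the prior. All tests are two-sided, with Benjamini-Hochberg adjustment over all genes. The median SE was 0.0949. The fit was tested on simulated data. Dim means below the median of the arrays in both groups. The test of the run by time interaction was added after seeing the data. Plots used matplotlib 3.10.9 in Python 3.11.15.

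The genes named, the 48 gene lists and the 9 marker lists were chosen with earlier results of these data known, so a list's direction is not independent evidence. Named were, of called genes that have a proper name, the 30 that rose most and the 30 that fell most, up to 6 called members of each list by p (the 2 smallest p where fewer than 2 were called), and a panel of Ifng, Il12rb1, Il12rb2, Stat4, Tbx21, Il18r1, Il18rap, Il2, Il2ra, Il4, Gata3, Nr4a1, Nr4a3, Egr3, Cd40lg, Cd4, Cd3e and Lyz2. Altogether 27 alternatives were run: 11 leave out 1 array each, and the others change the run term, the arrays, the normalization, the filter, the probe set rule, the test or the covariates.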

Additional observations from a re-analysis of the deposited data

Results flagged for a closer look

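In the 4 arrays with IL-12 for 8 h, 194 named genes were examined for a single array far from the other 3, and 3 had one. Chance marks about 1 in 20 groups of 4 values from a single normal distribution. These arrays come from both number runs, so that rate does not apply directly here. Cdc25c, a phosphatase gene of mitotic entry, stood at 8.42 in array 5 against 8.82 to 8.88 in the others. Il2ra stood at 13.52 in array 6 against 13.44 to 13.45, and Lmna at 7.65 in array 6 against 7.43 to 7.45.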

How the results depend on the processing

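The counts of higher and lower genes, 205 and 420, were 68 and 175 without the run term, 68 and 252 on arrays numbered 5 to 8, 126 and 350 on the 6 arrays compared with the run term, and 43 and 223 on these 6 without it. They were 308 and 534 with separate means for each group and run, 48 and 42 with the baseline array pooled with the untreated ones, 13 and 68 with the macrophage marker mean as covariate, 127 and 310 with array weights, and 10 and 75 when limma's treat asked for a log2 change over 0.3. Leaving out 1 array gave 67 to 228 higher and 200 to 435 lower genes. The other alternatives (quantile normalization again, median centring, an added 16, genes above the median level, mean of probe sets, trend with robust) stayed within 1.5 times of both counts. Median centring gave 259 and 366. Of the 149 named called genes, 83 kept the call without the run term, 113 on arrays 5 to 8, 49 with the macrophage covariate and 35 with the baseline pooled; the cause was not tested. Medians of the 57 lists moved by more than the SD between arrays of a group for 45 lists without the run term, 27 on arrays 5 to 8, 41 with the baseline pooled, 33 with the macrophage covariate, and 26 and 33 without untreated array 7 and 8. Among the 149 named calls the 1 change of sign was that of Nt5e, 0.059 with the baseline pooled. Of all 205 rises and 420 falls, 204 and 413 kept their sign in that fit. Without the run term 204 and 420 kept it, both on all arrays and on the 6 compared.

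Title numbers are shared between IL-12 2 h and 8 h but not with untreated arrays, so a fixed replicate block could not be fitted. The residuals of arrays of the same number had correlations of -0.397, -0.452, -0.149 and -0.395 for numbers 2, 3, 5 and 6. In this model the residuals of IL-12 2 h and 8 h arrays cancel within a run, which pushes them to opposite signs. These correlations therefore cannot show whether arrays of the same number deviate together. With the number as a random replicate block limma called 260 higher and 464 lower genes, and all 149 named calls held. The block correlation of that fit was -0.136. It came from the same model without the run by time interaction, so it does not settle the question either. With 2 untreated arrays, small changes are measured with little precision.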
